A study of Mus musculus with 4 samples.

Results

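The genes described here make, take up, store and regulate cholesterol and fatty acids. They were chosen by name, as 37 listed genes of these pathways, and all 37 had a row among the 11160 features of the expression table (Msmo1 under its older symbol, Sc4mol). All 37 passed the filter on low values that left 10976 features for testing. The sterol branch holds 28 of them and the fatty acid branch 9. The RNA came from neural progenitor cells of C57BL/6J mouse embryos at embryonic day 12.5, dissected from the dorsal telencephalon and grown as neurospheres (floating clusters of progenitors that divide in culture) in a medium with N2, B27, insulin and FGF. There were 2 wild-type (WT) libraries and 2 labelled Mcph1 KO, a full knockout of the gene for microcephalin, a protein that holds back chromosome condensation. Each culture started from the telencephalon of 1 embryo, cultures of a genotype were pooled by 2 to 3, and RNA of twin samples was pooled again before the libraries were made, so a library is a pool and the spread between libraries is a spread between pools.

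Cholesterol is built from acetyl-CoA through mevalonate and isoprenoid units to squalene, which is closed into lanosterol and trimmed to cholesterol. The genes of this route share a control: when the membrane of the endoplasmic reticulum is short of cholesterol, Scap carries the SREBP transcription factors to the Golgi, where they are cleaved and freed to activate the genes, and the Insig proteins hold Scap back when sterol is plentiful. SREBP-2 acts mainly on sterol genes and SREBP-1c mainly on fatty acid genes. The developing brain comes to depend on its own cholesterol synthesis, since lipoproteins of the blood hardly enter it.

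Sequenced depth differed between the libraries, with 7109365 and 22347416 reads recovered for WT 1 and WT 2 and 10936719 and 5975471 for the KO-labelled pools 1 and 2. Levels are given as scaled CPM, the reads of a gene relative to those of its library after scaling by TMM, and 3 reads correspond to between 0.137 and 0.534 CPM, a limit that covers counting error only. Mcph1 itself (GSMG0037052) had levels of 21.1 and 21.6 CPM in the WT pools, against 19.6 and 20.3 CPM in the KO-labelled pools (an estimate of -0.10 on the log2 scale, SE 0.24, adjusted p = 0.922 by limma). A count over the whole gene does not check a deletion whose extent the labels leave unsaid, so the second group is called KO-labelled here. Features without a gene symbol took 11.9% to 13.9% of the reads in the first 3 libraries and 21.8% in KO-labelled 2. All 15 radial glia and progenitor markers were measured, with summed levels of 14266 and 14527 CPM in the WT pools and 7337 and 10454 CPM in the KO-labelled pools. The 12 neuron markers measured, of 18, summed to 962 and 1137 CPM in WT, 2113 CPM in KO-labelled 1 and 899 CPM in KO-labelled 2, and the 7 astrocyte markers to 2367 and 1050 CPM in the WT pools and 1419 and 2057 CPM in the KO-labelled pools. Of 9 oligodendrocyte lineage markers 7 were measured (1019 and 995 CPM in WT, 678 and 976 CPM KO-labelled). Of 6 intermediate progenitor markers 2 were measured (288 and 285 CPM, then 270 and 279 CPM). Of 8 endothelial and pericyte markers, only Acta2 was measured, at 17.6 to 20.7 CPM. The 8 microglial, 6 meningeal and 5 erythroid markers were not among the features analysed here. In bulk RNA, fewer cells of a type and less RNA per cell cannot be told apart.

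No gene of the 37 passed the test, and most sterol synthesis enzymes had estimates below 0. limma called 0 members lower and 0 higher at an adjusted p of 0.05, where it also called 0% of all features in each direction, and the smallest adjusted p of a member was 0.655. Before adjustment, p lay under 0.05 for 5 members with lower levels (Idi1, Fdps, Msmo1, Ebp and Insig1) and for 1 with a higher level (Fads2), against 4.00% of all features lower and 3.58% higher. The edgeR quasi-likelihood test, limma-voom and DESeq2 on the recovered reads called 0 members as well, although DESeq2 called 0.137% of all features lower and 0.0548% higher. Both KO-labelled pools lay below both WT pools for 17 of the 37 members, compared with 20.0% of all features, and above both for 6 members, compared with 21.1%. The estimate was below 0 for 27 members, against 48.6% of all features.

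By role, 16 of the 18 sterol synthesis enzymes had an estimate below 0, against 48.6% of all features. Both KO-labelled pools lay below both WT pools for 10 of the 18, against 20.0% of all features. The median log2 fold change of the 18 was -0.43 (0.744-fold), while the median of all features tested was 0.01. The 5 regulators of sterol synthesis had 4 estimates above 0 and a median of 0.39. The 5 genes of sterol transport and storage had 3 estimates below 0, near the share of all features, and a median of -0.03. The 9 fatty acid genes had 7 below 0 and a median of -0.29.

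**Figure D1:**
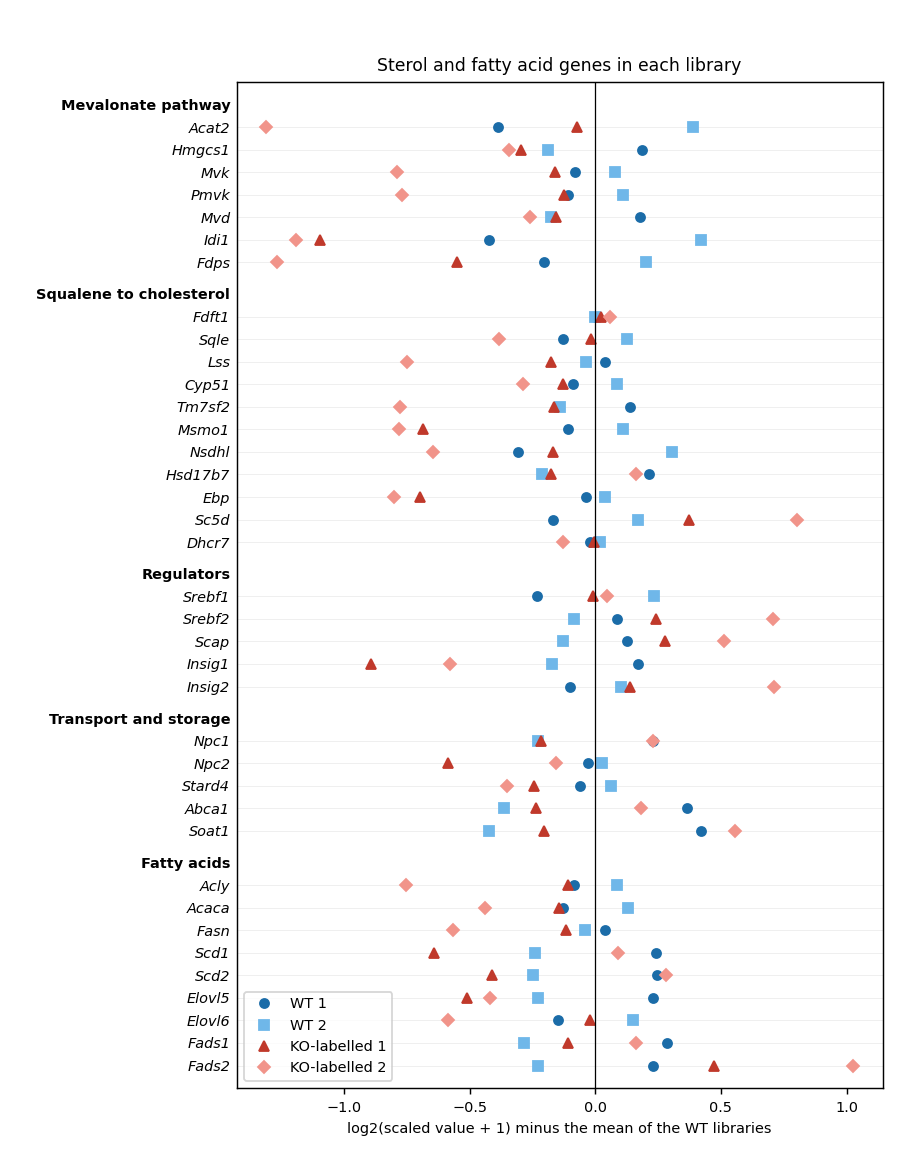
Level of each of the 37 genes in each library, as log2(scaled value + 1) minus the mean of the 2 WT pools (horizontal axis), with genes grouped by role, the WT pools in blue and the KO-labelled pools in red. Idi1, Msmo1 and Ebp have both red symbols left of both blue ones, Fads2 and Sc5d have both to the right, and for the mevalonate genes KO-labelled 2 lies farther left than KO-labelled 1.

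Stretches of promoter are shown for 5 genes because a feature that the choice of genes did not use was common to the sterol enzymes: the letters CCAAT, the binding motif of NF-Y, a factor that works beside SREBPs at sterol genes. RefSeq promoters (GRCm38.p6) were found for 29 of the 37 genes, and the 250 bases before the start were searched on both strands. CCAAT was present in 14 of the 15 sterol synthesis enzymes with a promoter, Acat2 being the one without it, in 2 of 6 fatty acid genes and in 37.5% of the 27025 genes with a promoter. GGGCGG, the motif of Sp1, was present in 14 of the 15 enzymes, in 2 of 6 fatty acid genes and in 35.4% of all genes. The sterol regulatory element searched as TCACNCCAC was found in Hmgcs1 alone of the 29 genes and in 1.22% of all. Its core CACNCCA, which the longer motif contains, was found in 3 of the 15 enzymes and in 17.4% of all, and the E-box CACGTG in 3 of the 15 and in 6.86% of all. The 27025 genes were not limited to those measured in these cells, as the members are, so the shares compare unlike sets. A match describes these letters in this window and is not a site of binding.

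Hmgcs1 is shown for its sterol regulatory element, and Idi1, Msmo1, Insig1 and Sc5d were chosen after their values were seen, the first 3 for lying lower and Sc5d for lying higher in the KO-labelled pools. The stretches lie on GRCm38 at chr13:119690101-119690325 (plus strand), chr13:8885546-8885605 (plus strand), chr8:64733614-64733769 (minus strand), chr5:28071181-28071411 (plus strand) and chr9:42264305-42264339 (minus strand), all before the start of the gene. Each is written in the direction of the gene, and capitals mark CCAAT as well as CACNCCA or the longer TCACNCCAC on either strand (CCAAT on the opposite strand reads ATTGG).
Hmgcs1: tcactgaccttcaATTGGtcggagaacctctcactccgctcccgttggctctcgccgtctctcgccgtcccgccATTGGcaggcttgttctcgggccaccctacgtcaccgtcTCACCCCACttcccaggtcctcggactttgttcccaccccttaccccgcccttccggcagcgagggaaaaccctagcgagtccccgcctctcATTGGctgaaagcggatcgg
Idi1: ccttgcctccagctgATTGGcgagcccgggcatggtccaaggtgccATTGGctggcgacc
Msmo1: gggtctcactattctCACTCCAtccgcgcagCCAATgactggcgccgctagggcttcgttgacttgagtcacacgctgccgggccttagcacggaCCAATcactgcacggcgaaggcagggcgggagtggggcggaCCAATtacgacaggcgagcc
Insig1: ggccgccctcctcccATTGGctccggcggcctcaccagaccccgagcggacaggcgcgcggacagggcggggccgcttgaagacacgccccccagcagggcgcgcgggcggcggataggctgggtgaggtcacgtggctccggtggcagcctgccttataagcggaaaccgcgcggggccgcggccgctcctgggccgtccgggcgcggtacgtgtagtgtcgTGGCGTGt
Sc5d: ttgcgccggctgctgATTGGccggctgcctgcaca

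CCAAT occurs once in the stretches of Sc5d and Insig1, in 2 places in that of Idi1 and in 3 in those of Msmo1 and Hmgcs1. The number of copies cannot be set against the direction of the estimate, since Sc5d alone of the enzymes with a promoter had an estimate above 0. Among the others, Lss and Cyp51 hold 1 copy, Mvk holds 5, and Hsd17b7, with an estimate near 0, holds 3. A relation of copies to the estimates was not tested.

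The 7 genes from acetyl-CoA to farnesyl diphosphate all had estimates below 0, against 48.6% of all features, with a median log2 fold change of -0.47. Idi1 encodes the isomerase that interconverts the C5 isoprenoid units. It stood at 239 CPM in WT 1, 429 CPM in WT 2, 150 CPM in KO-labelled 1 and 140 CPM in KO-labelled 2. The KO-labelled pools were close to each other and below both WT pools, which themselves differed widely. The estimated log2 fold change of -1.14 had an SE of 0.32, an interval at 95% from -1.91 to -0.37 and a limma adjusted p of 0.655. No other of the 37 estimates lay as far from 0. It was -0.72 without WT 2 and -1.56 without WT 1. Fdps, which joins these units into farnesyl diphosphate, stood at 134 and 178 CPM in the WT pools, against 105 and 64.1 CPM in the KO-labelled pools. KO-labelled 2 was the lowest, and the groups did not overlap. Its estimated log2 fold change of -0.91 had an SE of 0.31, an interval at 95% from -1.66 to -0.15 and a limma adjusted p of 0.655. It was -0.56 without KO-labelled 2 and -1.27 without KO-labelled 1. Fdps also overlaps another annotated coding gene, Gm43738, on the same strand, so its reads are uncertain.

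Earlier in the route the differences were smaller relative to the spread. Hmgcs1, which makes HMG-CoA, was the most abundant of the 37 genes per length of transcript in the WT pools. It stood at 903 and 698 CPM in the WT pools, against 647 and 625 CPM in the KO-labelled pools (an estimate of -0.32 on the log2 scale, SE 0.26). The gap between the groups was thus smaller than the gap between the WT pools. Mvk and Pmvk, the kinases that phosphorylate mevalonate, stood at 0.720-fold and 0.734-fold of WT. In both genes KO-labelled 1 lay just under the lower WT library (19.8 against 21.0 CPM for Mvk, 48.9 against 49.5 CPM for Pmvk) and KO-labelled 2 well under it (12.8 and 31.3 CPM). Mvd, the decarboxylase that follows them, overlapped between the groups, at 66.0 and 51.6 CPM in WT and 52.3 and 48.8 CPM KO-labelled (an estimate of -0.21 on the log2 scale, SE 0.24). Acat2, the cytosolic thiolase that starts the route, ranged from 27.4 to 47.0 CPM in the WT pools and from 14.4 to 34.1 CPM in the KO-labelled pools, and had the widest error of the 37 (an estimate of -0.69 on the log2 scale, SE 0.47). Acat2 has a near-copy in the mouse, Acat3, with which it may share reads.

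Of the 11 enzymes from squalene onward 9 had an estimate below 0 and 2 above it, with a median of -0.21. Over all features 48.6% of estimates lay below 0. Msmo1 encodes the oxidase that starts removal of the methyl groups at carbon C4 of the sterol ring. It stood at 155 and 180 CPM in the WT pools, against 104 and 97.2 CPM in the KO-labelled pools. Within each group the libraries lay close together, and the groups were well apart. The estimated log2 fold change of -0.73 had an SE of 0.22, an interval at 95% from -1.27 to -0.20 and a limma adjusted p of 0.655. Ebp, the isomerase of the sterol double bond, was much less abundant, also per length, at 9.73 and 10.3 CPM in the WT pools and 6.13 and 5.69 CPM in the KO-labelled pools (an estimate of -0.75 on the log2 scale, SE 0.30, adjusted p = 0.655). Its groups were also apart, on as few as 32 reads in KO-labelled 2.

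Sc5d, the desaturase that introduces the double bond at carbon C5, had the opposite direction. It stood at 21.8 and 27.6 CPM in the WT pools, against 31.8 and 42.9 CPM in the KO-labelled pools (an estimate of 0.59 on the log2 scale, SE 0.27, 95% interval -0.07 to 1.25, adjusted p = 0.659). The estimate was 0.36 without KO-labelled 2. Fdft1, the squalene synthase that commits farnesyl diphosphate to sterols, hardly differed in any library, at 249.7 and 249.5 CPM in the WT pools and 253 and 260 CPM in the KO-labelled pools. Its log2 fold change was 0.04 (95% interval -0.48 to 0.56), so a difference of the size estimated for Msmo1 lay outside its interval. Fdft1 and Cyp51 overlap coding genes on the opposite strand, Ctsb and Akap9, and whether the counting used strand is not given.

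Of the other 7 enzymes, 3 lay lower in both KO-labelled pools than in either WT pool, against 20.0% of all features. Lss (lanosterol synthase) went from 74.9 and 71.1 CPM in WT to 64.6 and 43.4 CPM, an estimate of -0.46. Cyp51 (the lanosterol demethylase) went from 236 and 266 CPM to 229 and 205 CPM (-0.21), and Tm7sf2 (a sterol reductase, overlapped on its own strand by Vps51) from 7.78 and 6.41 CPM to 6.30 and 4.09 CPM (-0.47). In Cyp51 and Tm7sf2 the gap between the nearest pools of the groups was small, and Tm7sf2 (SE 0.37) rested on as few as 23 reads in KO-labelled 2.

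The last 4 enzymes overlapped between the groups. Sqle, the squalene epoxidase, had 170 and 203 CPM in WT and 184 and 142 CPM in the KO-labelled pools (-0.20), and Nsdhl, a dehydrogenase of C4 demethylation, 37.7 and 57.6 CPM and then 41.4 and 29.7 CPM (-0.41). KO-labelled 2 was the lowest library in both. Hsd17b7, the ketoreductase of the same demethylation, had 18.1 and 13.4 CPM and then 13.8 and 17.4 CPM (-0.01), and Dhcr7, the reductase of the last step, 11.5 and 11.9 CPM and then 11.7 and 10.7 CPM (-0.07). Their SEs were 0.30 and 0.27.

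The difference in the sterol enzymes was larger in KO-labelled 2. Relative to the WT mean, the median of the 18 enzymes was -0.16 in KO-labelled 1 and -0.70 in KO-labelled 2, and KO-labelled 2 lay below KO-labelled 1 in 15 of the 18. Without KO-labelled 1 the median log2 fold change was -0.70, and without KO-labelled 2 it was -0.17. KO-labelled 1 lay below the WT mean in 16 of the 18 enzymes and KO-labelled 2 in 15. Of all 10976 features tested, KO-labelled 2 lay below KO-labelled 1 in 5634. KO-labelled 1 lay below the WT mean in 5450 of them and KO-labelled 2 in 5410. KO-labelled 2 also had the fewest reads and the largest share of reads on features without a symbol, and the part of these in the result was not tested. Summed, the 18 enzymes made up 2432 and 2581 CPM in the WT pools and 2004 and 1796 CPM in the KO-labelled pools.

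**Figure D2:**
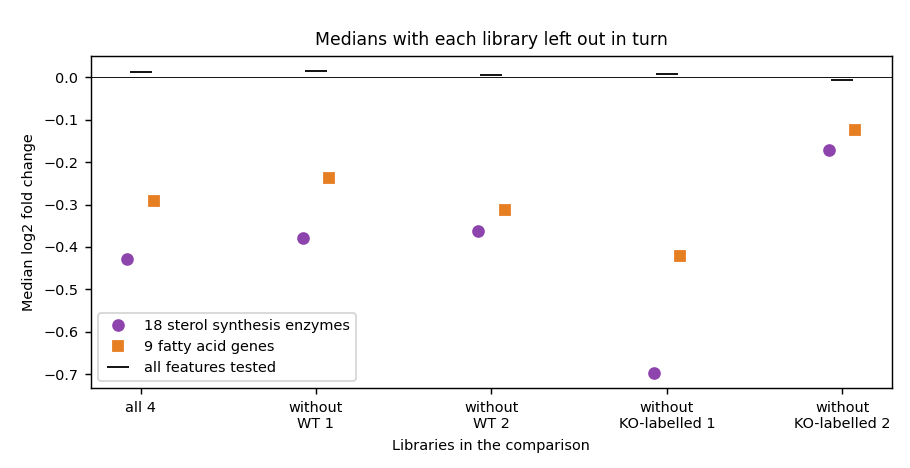
Median log2 fold change, KO-labelled against WT (vertical axis), of the 18 sterol synthesis enzymes (circles), the 9 fatty acid genes (squares) and all features tested (dashes), with all 4 libraries and with each library left out in turn. Both medians stay below 0 in each case, and the enzymes range from -0.70 without KO-labelled 1 to -0.17 without KO-labelled 2.

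Transcript length moved with the comparison across the whole table (Spearman's rho 0.284 between length and log2 fold change over 9837 features, a description, since genes are not independent). The class medians of the sterol enzymes are set beside those of all features of like length, and the part of length in the result was not tested. Among transcripts of 1001 to 2000 bases the median was -0.47 for 6 enzymes and -0.13 for all features, and among those of 2001 to 3000 bases it was -0.41 for 5 enzymes and -0.04 for all. Among those of 3001 to 4500 bases it was -0.26 for 4 enzymes and 0.03 for all, and above 4500 bases -0.01 for 3 enzymes and 0.14 for all. With the trend of each library with length removed, the median of the 18 enzymes was -0.34 and that of the 9 fatty acid genes -0.43.

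The regulators went in both directions. Insig1, which holds Scap in the endoplasmic reticulum and is itself a target of SREBPs, stood at 522 and 412 CPM in the WT pools, against 250 and 310 CPM in the KO-labelled pools. Both KO-labelled pools lay well below WT, KO-labelled 1 more so. The estimated log2 fold change of -0.74 had an SE of 0.26, an interval at 95% from -1.35 to -0.12 and a limma adjusted p of 0.655. Insig2, its relative with the same function, stood at 8.06 and 9.29 CPM in the WT pools, against 9.53 and 14.2 CPM in the KO-labelled pools (an estimate of 0.43 on the log2 scale, SE 0.33). It lay just above WT in KO-labelled 1 and farther above in KO-labelled 2.

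Srebf2, the gene of SREBP-2, stood at 24.0 and 21.4 CPM in the WT pools, against 26.8 and 37.0 CPM in the KO-labelled pools (an estimate of 0.47 on the log2 scale, SE 0.27, adjusted p = 0.675). Scap, the escort of the SREBPs, stood at 19.2 and 16.1 CPM in the WT pools, against 21.3 and 25.1 CPM in the KO-labelled pools (an estimate of 0.39 on the log2 scale, SE 0.26, adjusted p = 0.706). In both genes the groups did not overlap and KO-labelled 2 was the highest library. Srebf1, the gene of SREBP-1, overlapped fully, with both KO-labelled pools (76.6 and 79.5 CPM) between the WT pools (65.6 and 90.5 CPM).

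**Figure D3:**
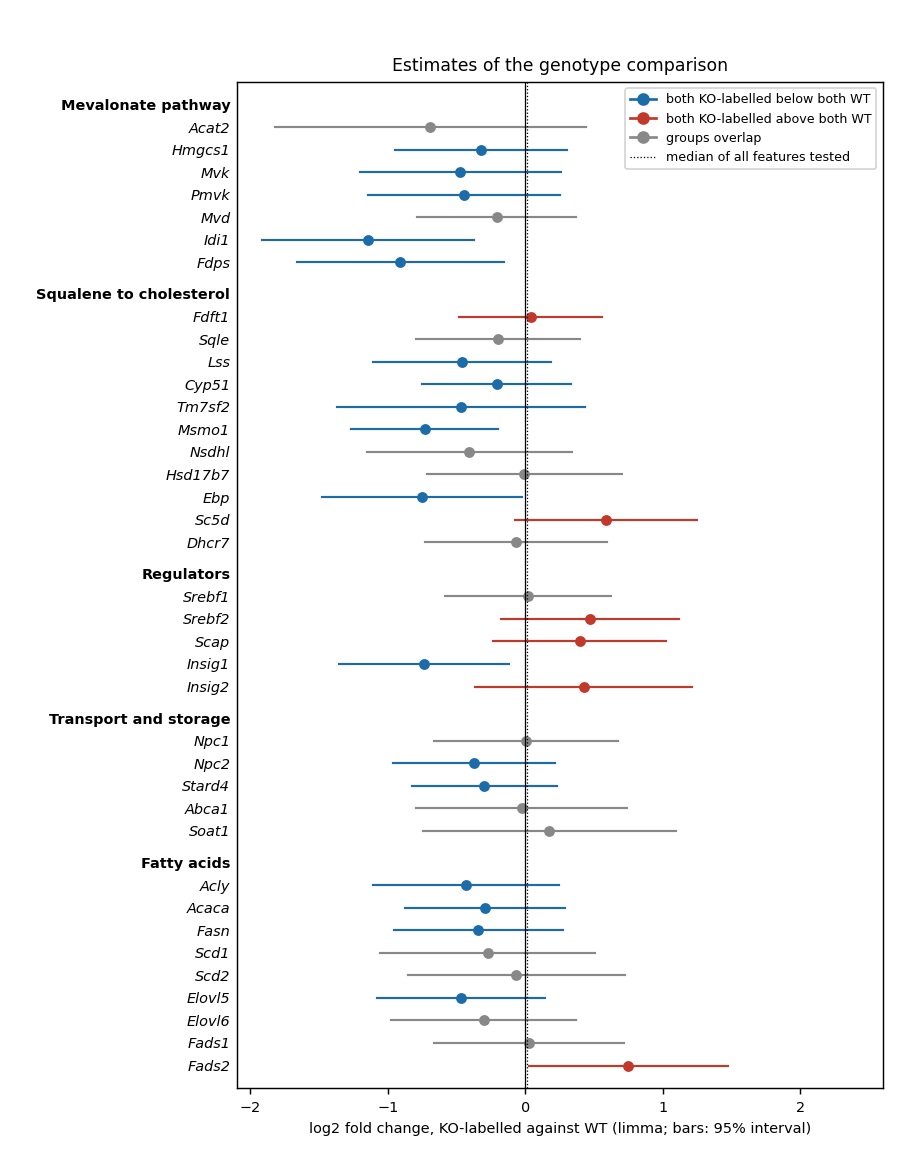
Estimated log2 fold change of each gene, KO-labelled against WT, with its 95% interval from limma (horizontal axis), by role, where blue marks genes with both KO-labelled pools under both WT ones, red those with both above, and grey those that overlap. The intervals of Idi1, Fdps, Msmo1, Ebp and Insig1 lie below 0 and that of Fads2 above 0, before any adjustment for the number of features.

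Sterol transport and storage showed no common direction. Npc2, which binds cholesterol in the lysosome and hands it to Npc1, stood at 212 and 220 CPM in the WT pools, against 144 and 194 CPM in the KO-labelled pools (an estimate of -0.37 on the log2 scale, SE 0.25). Stard4, a carrier of sterol through the cytosol, stood at 62.4 and 68.1 CPM in the WT pools, against 55.0 and 51.1 CPM in the KO-labelled pools (an estimate of -0.30 on the log2 scale, SE 0.22). These were the only genes of the 5 whose groups did not overlap. Over all features, both KO-labelled pools lay below both WT pools for 20.0% and above both for 21.1%. The count among these 5 genes is thus near what the whole table shows.

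Npc1, the lysosomal membrane protein that exports cholesterol, stood at 164 and 119 CPM in the WT pools, against 120 and 164 CPM in the KO-labelled pools. Abca1, the pump that loads cholesterol onto lipoproteins, stood at 251 and 151 CPM in the WT pools, against 165 and 221 CPM in the KO-labelled pools. Soat1, which esterifies cholesterol for storage, stood at 113 and 62.8 CPM in the WT pools, against 73.0 and 124 CPM in the KO-labelled pools. In all 3 genes WT 1 and KO-labelled 2 were the high libraries, the libraries of a group differed more from each other than the groups did, and the estimates were 0.01, -0.03 and 0.17. The summed astrocyte markers were also highest in these libraries, at 2367 and 2057 CPM, and their part in the levels of these genes was not tested.

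Of the 9 fatty acid genes 0 had a lower level and 1, the desaturase Fads2, a higher one at an unadjusted limma p under 0.05. Of all features 4.00% were lower and 3.58% higher at that threshold. Acly, which makes cytosolic acetyl-CoA from citrate, stood at 96.6 and 109 CPM in the WT pools, against 95.03 and 60.9 CPM in the KO-labelled pools (an estimate of -0.43 on the log2 scale, SE 0.28). Acaca, the carboxylase that makes malonyl-CoA, stood at 222 and 266 CPM in the WT pools, against 220 and 180 CPM in the KO-labelled pools (-0.29, SE 0.24). Fasn, the synthase that builds palmitate, stood at 49.3 and 46.7 CPM in the WT pools, against 44.3 and 32.4 CPM in the KO-labelled pools (-0.34, SE 0.25). In all 3 genes KO-labelled 1 lay just below the lower WT library and KO-labelled 2 farther below it. Without KO-labelled 2 the estimates were -0.12, -0.16 and -0.13.

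The elongases Elovl5, which acts on polyunsaturated chains, and Elovl6, which extends palmitate, had log2 fold changes of -0.47 (SE 0.25) and -0.30 (SE 0.28). Elovl5 stood at 65.3 and 47.6 CPM in the WT pools, against 39.1 and 41.6 CPM in the KO-labelled pools, without overlap. Elovl6 overlapped, with KO-labelled 1 (199.6 CPM) between the WT pools (182 and 225 CPM) and KO-labelled 2 below them (135 CPM). Scd1 and Scd2, the desaturases that introduce the double bond at carbon C9, overlapped between the groups, with estimates of -0.27 (SE 0.32) and -0.07 (SE 0.33). Scd2 was the main form, also per length, at 502 and 357 CPM in the WT pools and 318 and 515 CPM in the KO-labelled pools, against 92.4, 66.1, 50.1 and 83.3 CPM for Scd1. WT 1 and KO-labelled 2 were again the high libraries in both. Scd1 and Scd2 have similar coding sequences, so reads may be split between them.

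Fads2, the desaturase that starts the conversion of essential fatty acids to longer polyunsaturated ones, stood at 357 and 260 CPM in the WT pools, against 423 and 622 CPM in the KO-labelled pools. Both KO-labelled pools were above WT and KO-labelled 2 was the highest. The estimated log2 fold change of 0.75 had an SE of 0.30, an interval at 95% from 0.02 to 1.47 and a limma adjusted p of 0.655. It was 0.46 without KO-labelled 2 and 1.03 without KO-labelled 1. Fads1, the desaturase of a later step of the same conversion, stood at 584 and 394 CPM in the WT pools, against 445 and 537 CPM in the KO-labelled pools, with an estimate of 0.03 (SE 0.29). The fatty acid median was -0.29 with all libraries and -0.42 and -0.13 without KO-labelled 1 and KO-labelled 2.

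Ratios of reads between a pair of genes within a library do not depend on how libraries are scaled. The pairs were chosen after the values were seen and are given without a test. Insig1 had 64.7 and 44.3 times the reads of Insig2 in WT and 26.2 and 21.8 times in the KO-labelled pools. Fads2 had 0.612 and 0.662 times the reads of Fads1 in WT and 0.950 and 1.16 times in the KO-labelled pools. In the first pair both KO-labelled ratios lay below WT, in the second above it.

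Along the sterol route, Idi1 had 0.958 and 1.72 times the reads of Fdft1 in WT and 0.593 and 0.540 times in the KO-labelled pools, and Fdps had 0.536 and 0.712 times in WT and 0.416 and 0.247 times in the KO-labelled pools. Msmo1 had 7.09 and 6.52 times the reads of Sc5d in WT and 3.26 and 2.27 times in the KO-labelled pools. Transcript lengths differ within some pairs, at 2044 bases for Msmo1 and 4787 for Sc5d, and 1382 for Fdps and 3698 for Fdft1. The part of the trend with length in these ratios was not tested. For Scd2 over Scd1 the ratio was 5.44 and 5.40 in WT and 6.35 and 6.18 in the KO-labelled pools, a small shift with little spread, although the levels of both genes overlapped between the groups. Srebf2 over Srebf1 overlapped, at 0.366 and 0.236 in WT and 0.350 and 0.465 in the KO-labelled pools.

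**Figure D4:**
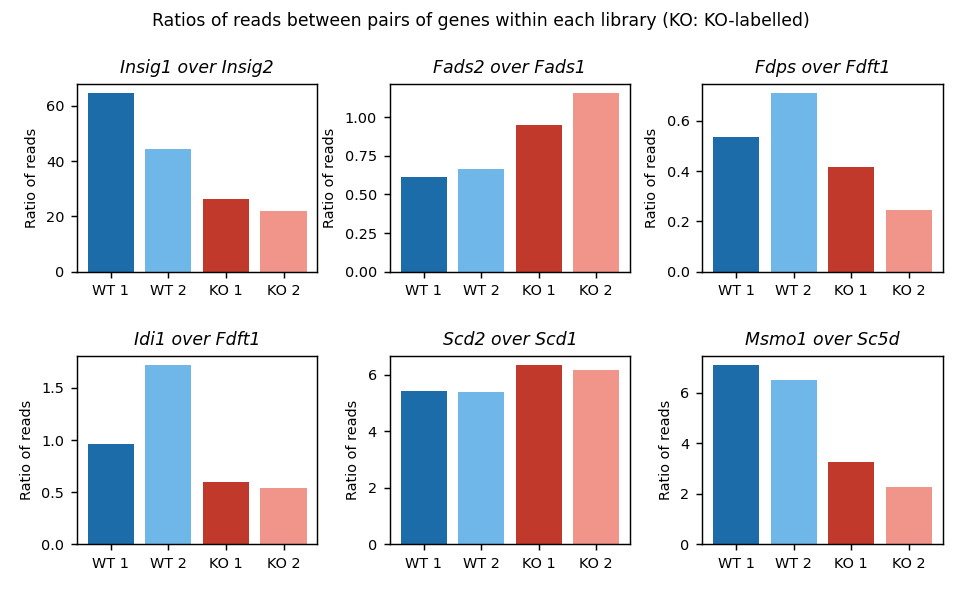
Ratio of reads between pairs of genes within each library (vertical axes, starting at 0), for 6 pairs, each bar 1 library (WT 1 and WT 2 blue, KO-labelled 1 and 2 red). Insig1 over Insig2 goes from 64.7 and 44.3 in WT to 26.2 and 21.8, and Fads2 over Fads1 from 0.612 and 0.662 to 0.950 and 1.16.

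Per kilobase of transcript, Hmgcs1 stood first, at 261 and 201 CPM per kilobase in WT, followed by Insig1 (193 and 153) and Fads1 (169 and 114), whose ranges overlap. Fdps (96.9 and 129), Idi1 (79.0 and 142) and Fads2 (114 and 82.7) came next, and their WT ranges overlap each other, so their order is not set. The lowest were Insig2 (2.99 and 3.45), Hsd17b7 (3.92 and 2.91) and Dhcr7 (4.10 and 4.21). In the KO-labelled pools the ranges of Hmgcs1 (187 and 181) and Fads2 (134 and 197) overlap, so that first place is not set. By the group mean Idi1 went from the fifth to the 12th place and Fdps from the fourth to the seventh. Sterol synthesis enzymes thus spanned nearly the whole range of levels. Lengths were those of the longest coding transcript in GENCODE M21, from 1194 to 10262 bases, and the transcripts actually used by these cells may differ.

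**Figure D5:**
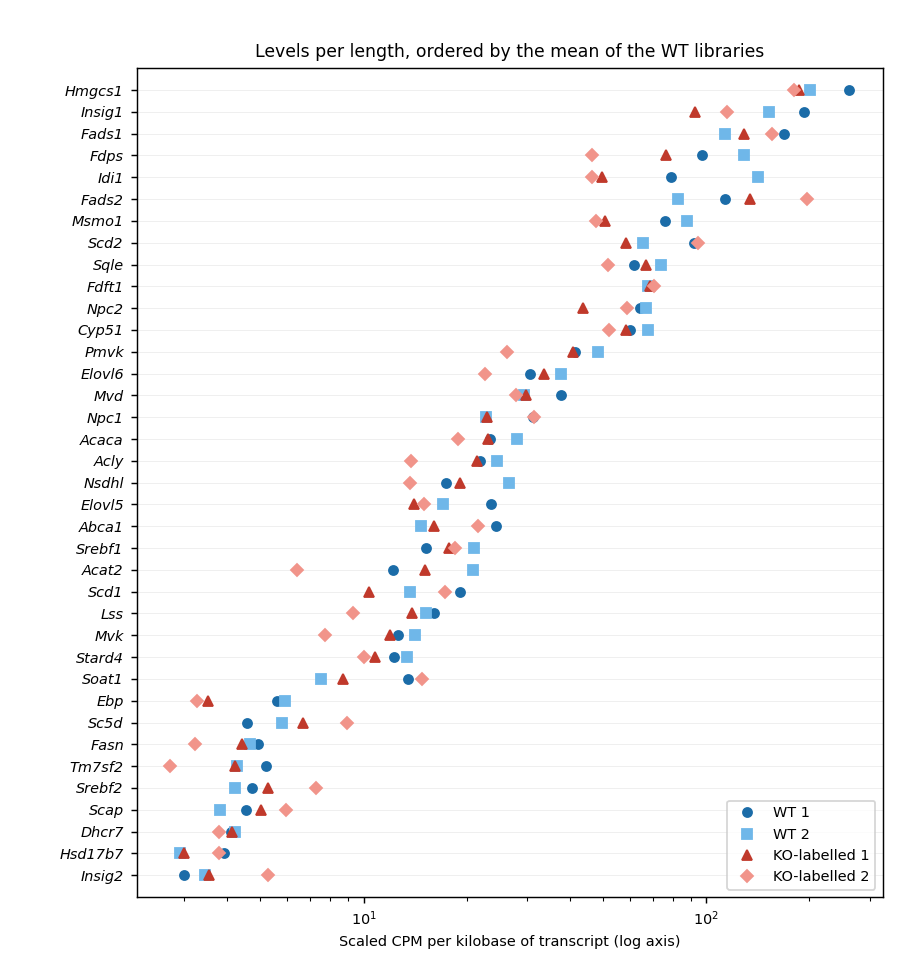
Scaled CPM per kilobase of transcript for each gene (horizontal axis, log scale) in each library, ordered by the mean of the WT pools, with WT in blue and KO-labelled in red. Hmgcs1 is highest in every library but KO-labelled 2, where Fads2, at 197, lies above its 181.

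Related genes outside the 37 were taken from 7 lists, of which limma also called 0 genes at an adjusted p of 0.05 and DESeq2 called 1, Fabp7. The counts below 0 given for each list stand beside 48.6% of all features. Genes that supply acetyl-CoA and NADPH were the most one-sided, with 8 of 9 estimates below 0 and a median log2 fold change of -0.34, among them Acss2, which makes acetyl-CoA from acetate. Acss2 stood at 109 and 98.9 CPM in the WT pools, against 58.2 and 65.3 CPM in the KO-labelled pools (an estimate of -0.75 on the log2 scale, SE 0.22). Acat1, the mitochondrial thiolase, and Idh1, the cytosolic isocitrate dehydrogenase, had estimates of -0.48 and -0.45.

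Fatty acid carriers had 4 of 6 measured estimates below 0 and a median of -0.50. Fabp7 and Fabp5, fatty acid binding proteins of neural progenitors, had log2 fold changes of -1.32 (SE 0.31) and -0.69 (SE 0.27), and Dbi, the acyl-CoA binding protein, -0.70 (SE 0.33). For Fabp7 the adjusted p was 0.655 by limma and 0.00407 by DESeq2 on the recovered reads, so that its call depends on the test. The list's summed level was 9940 and 9424 CPM in the WT pools and 4517 and 5222 CPM in the KO-labelled pools. Fabp7 is also on the radial glia list, where it makes up much of the sum. Of that list's 15 genes 8 had an estimate below 0, and its median was -0.01. The part of the cell makeup in these levels was not tested.

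The other lists had medians nearer 0. Enzymes of chain elongation and desaturation beyond the 9 members had 8 of 12 estimates below 0 (median -0.19), with the dehydratase Hacd3 at -0.66, the elongase Elovl2 at 0.65 and the reductase Tecr at 0.39. Acyl-CoA ligases and lipid assembly enzymes had 10 of 17 below 0 (median -0.15), with Agpat5 at -0.61, Acsl5 at -0.57 and Lpin2 at 0.35. The isoprenoid branch, which uses farnesyl diphosphate for prenyl groups, had 7 of 14 below 0 (median -0.03). Its 3 genes with the smallest p encode some of its prenyltransferase subunits, with Fnta at -0.62, Rabggtb at -0.66 and Rabggta at 0.46. Genes that process SREBPs or degrade sterol-regulated proteins had 10 of 18 below 0 (median -0.04), with the COPII coat genes Sec24b at 0.69 and Sar1a at -0.44 and the degradation factor Aup1 at 0.49. Genes of sterol export and lipoprotein receptors had 6 of 15 below 0 (median 0.17), with the sterol transfer protein Gramd1b at 0.90, the receptor Lrp8 at 0.52 and the transporter Abca2 at 0.56.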

How the data were processed

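Strand-specific, ribosome-depleted total RNA was sequenced as 75-base reads, with 4 libraries in 1 lane, per the labels' protocols. The submitters' processing notes name DESeq 1.12.1 and STAR 2.3.0, besides SAMtools 0.1.19, Picard 1.119 and FastQC 0.10.1, without roles. Genome build, annotation and counting rule, including any use of strand: not given in the sources used here. In GENCODE M21 Fdft1, Cyp51, Srebf1 and Npc1 overlap a coding gene on the opposite strand, Hmgcs1, Idi1, Lss and Scap overlap only noncoding or unclassified ones there, and Fdps and Tm7sf2 overlap a coding gene on their own strand. The deposited values are a signal per gene: the authors divided reads by 1 factor per library. Dividing by the step between low values gave whole reads for 100% of values in each library, within 0.01 of a step. The deposited factors do not bring the libraries to a common scale (before rescaling, the features had a median difference of -1.25 on the log2 scale, and of 0.01 after it), so values were rescaled by TMM (edgeR 4.0.16). The filter on low values was filterByExpr (minimum 10), and limma 3.58.1 in R 4.3.3, with a mean-variance trend and no block, was fitted to log2(scaled value + 1), which understates changes of low genes, with two-sided p-values adjusted by Benjamini-Hochberg over 10976 features and a threshold of 0.05. Other tests were edgeR's quasi-likelihood test, limma-voom and DESeq2 1.42.0 on the recovered reads. The tests were tried on simulated reads with planted changes, a check of the code that does not bear on the differences reported here. The members, lists and motifs were chosen with earlier results of these data known, so lists are described by counts and medians without a test. Text values cover every member, Mcph1 and up to 3 genes of each related list with the smallest p. Lengths came from GENCODE M21 for 88.3% of features.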

Additional observations from a re-analysis of the deposited data

How the results depend on the processing

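Over 16 alternatives, 566 estimates of single members kept their direction and stayed on the same side of the threshold, 26 changed sign and 0 passed it, the smallest adjusted p being 0.153 (Idi1). The direction held in every alternative for 29 of the 37 members. With upper-quartile factors Hsd17b7 stood at 0.035 and Abca1 at 0.014, and with median-of-ratios factors Npc1 at -0.0013. With limma-voom Hsd17b7 stood at 0.013 and Npc1 at -0.0023. With edgeR Srebf1 stood at -0.0016, and with DESeq2 Srebf1 at -0.0093, Npc1 at -0.00055 and Fads1 at -0.00022. With the length trend removed Srebf1 stood at -0.033 and Npc1 at -0.091. With 1 library left out, estimates went from -0.22 to 0.21 for Hsd17b7, -0.21 to 0.25 for Srebf1, -0.23 to 0.23 for Npc1, -0.39 to 0.34 for Abca1, -0.25 to 0.60 for Soat1, -0.65 to 0.092 for Scd1, -0.42 to 0.28 for Scd2 and -0.26 to 0.31 for Fads1. The cause of these changes was not tested.

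The number of features called was 0 in limma (832 at an unadjusted p under 0.05) and 21 in DESeq2 (6 higher, 15 lower). Leaving out 1 library gave 0 to 178 calls (21 without KO-labelled 1, 178 without KO-labelled 2), with the lone library assumed to vary like the other group, and no member among them. The median of the sterol enzymes ranged from -0.70 to -0.17 over the libraries left out, that of all 28 sterol genes from -0.32 to -0.18 and that of the fatty acid genes from -0.42 to -0.13. Library numbers do not pair the samples (the correlation of the deviations of same-numbered libraries is -0.30). With a replicate block in limma 0 features were called (476 at an unadjusted p under 0.05) and the enzyme median stayed at -0.43. With the crossed pairing, added after seeing the data, 0 were called as well, but 1484 had an unadjusted p under 0.05. With 2 pools a group, differences of the size estimated here did not pass the adjustment over all features. In the shallowest library, KO-labelled 2, reads were 23 for Tm7sf2, 32 for Ebp and 3514 for Hmgcs1, and the part of read depth was not tested.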
